A study of Mus musculus with 22 samples.

Results

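The NRF2 antioxidant response genes are the transcription factor gene Nfe2l2, which encodes NRF2, its inhibitor Keap1, and 8 genes that NRF2 is known to activate: Nqo1, Gclc, Gclm, Hmox1, Srxn1, Txnrd1, Gsr and Gpx2. They were found by exact symbol in the table of raw counts, where each of the 10 names matched 1 of 55573 genes. Liver mRNA had been sequenced from 22 C57BL/6 mice, 1 library per mouse, at 3 months of age. Cre mice were Flcn WT/WT; Albumin-Cre+/- and liver-Flcn-/- mice were Flcn f/f with Albumin-Cre, labelled FLCN KO, so both genotypes carried the recombinase, which the albumin promoter drives in hepatocytes and which removes a floxed exon of Flcn there. Mice were fed chow with 10 kcal% fat (6 Cre and 5 liver-Flcn-/- mice) or a methionine and choline deficient (MCD) diet (5 Cre and 6 liver-Flcn-/- mice), begun at 6 weeks of age and given for 6 weeks. The MCD diet starves the liver of the precursors of glutathione and phosphatidylcholine and is used as a model of steatohepatitis. The labels do not give the sex of the mice. Whole liver was used, so RNA of cells other than hepatocytes is part of every value, and fewer cells of a type cannot be told apart from less RNA per cell. Which of the other cells kept Flcn is not given in the sources used here.

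In unstressed cells KEAP1 holds NRF2 in the cytoplasm and hands it to a ubiquitin ligase for degradation. Electrophiles and oxidants modify cysteines of KEAP1, NRF2 then accumulates, pairs with a small MAF protein and binds antioxidant response elements of its targets, so that much of the control of NRF2 lies in the protein and not in its mRNA. The targets make glutathione (Gclc, Gclm), recycle it (Gsr), use it (Gpx2), reduce thioredoxin (Txnrd1) and hyperoxidised peroxiredoxins (Srxn1), reduce quinones (Nqo1) and break down haem (Hmox1).

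The core letters of an antioxidant response element, TGACNNNGC, were searched on both strands of RefSeq promoter windows (GRCm38.p6), each of 250 bases before and 50 bases from the gene's start on, because NRF2 acts through this element. The table held windows for 7 of the 10 members (Gclc, Hmox1 and Gsr are not in it), and 4 of these 7 (57.1%) had a match, against 14% of the 27025 genes with a window. Counted by window, 4 of the members' 9 (44.4%) had one, against 12.4% of all 32851 windows. The matches lay in Nfe2l2, Gclm, Srxn1 and the second of 3 windows of Txnrd1, and the windows of Keap1, Nqo1 and Gpx2 had none. Below, the 250 bases before the start are given for Nfe2l2, Gclm and Txnrd1, and for Srxn1 the match with 10 bases on either side, all 5′ to 3′ in the gene's direction, with the match in capitals. A match is a description of letters and not a test of binding.
Nfe2l2 (chr2:75704664-75704913, minus strand): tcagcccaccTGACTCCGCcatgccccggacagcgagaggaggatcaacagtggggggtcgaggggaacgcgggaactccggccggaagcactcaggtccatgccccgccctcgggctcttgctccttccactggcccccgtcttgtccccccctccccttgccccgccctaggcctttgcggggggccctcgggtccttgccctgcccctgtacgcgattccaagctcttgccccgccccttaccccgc
Gclm (chr3:122245307-122245556, plus strand): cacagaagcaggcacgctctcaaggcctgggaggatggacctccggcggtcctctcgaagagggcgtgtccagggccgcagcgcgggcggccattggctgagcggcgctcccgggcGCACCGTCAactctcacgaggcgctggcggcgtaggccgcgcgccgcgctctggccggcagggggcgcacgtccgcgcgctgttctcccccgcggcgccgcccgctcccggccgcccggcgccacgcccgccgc
Srxn1 (chr2:152105542-152105570, plus strand): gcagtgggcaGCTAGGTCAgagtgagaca
Txnrd1 (chr10:82858956-82859205, plus strand): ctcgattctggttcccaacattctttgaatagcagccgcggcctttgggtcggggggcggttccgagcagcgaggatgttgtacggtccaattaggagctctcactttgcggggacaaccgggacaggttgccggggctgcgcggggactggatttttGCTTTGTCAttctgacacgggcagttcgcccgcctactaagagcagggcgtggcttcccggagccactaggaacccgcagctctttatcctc
The match began 240 bases before the start in Nfe2l2, 134 before it in Gclm and 92 before it in Txnrd1, and at base 29 counted from the start in Srxn1. It read along the gene in Nfe2l2 and on the opposite strand in the other 3.

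Libraries held 13751347 to 21144388 reads counted on genes, with group medians of 17889283.5 in chow-fed Cre mice, 19092932 in MCD-fed Cre mice, 18282455 in chow-fed liver-Flcn-/- mice and 19039129.5 in MCD-fed liver-Flcn-/- mice. Levels are given as CPM, the read count of a gene relative to its library's total after adjustment by TMM factors, and a difference is called where edgeR's quasi-likelihood test gave an adjusted p under 0.05 over the 14062 genes tested. Libraries differed in ways that the group labels do not name. In 12 livers Xist had 5411 to 7573 counts, and in the other 10 it had 0 to 19 while the Y-linked Ddx3y had 703 to 2172. Ddx3y had 378 counts in Cre MCD mouse 1 and 263 in FLCN KO Chow mouse 2, which both had Xist RNA, and fewer in the other livers with Xist RNA. Livers with and without Xist RNA numbered 3 and 3 in chow-fed Cre mice, 3 and 2 in MCD-fed Cre mice, 3 and 2 in chow-fed liver-Flcn-/- mice and 3 and 3 in MCD-fed liver-Flcn-/- mice. The 5 chow livers without Xist RNA were also the 5 chow libraries with under 75% uniquely mapped reads, so on chow these properties cannot be told apart. No MCD library was under 75%, so a low mapped share occurred on chow only and goes with the diet. Skeletal muscle markers (Acta1, Ckm, Myh4, Mylpf and Tnnt3) summed to 1646 CPM in Cre MCD mouse 3, against 0.769 to 84.8 CPM in the other MCD-fed Cre mice. In MCD-fed liver-Flcn-/- mice they reached 36.1 CPM, in FLCN KO MCD mouse 3, with a median of 0.942 CPM. The hepatocyte markers Alb, Apoa1, Ttr, Tat and Cps1 were detected in every group and were led by Alb, with medians of their sum of 123305 CPM in chow-fed Cre mice, 88984 CPM in MCD-fed Cre mice, 111389 CPM in chow-fed liver-Flcn-/- mice and 66920 CPM in MCD-fed liver-Flcn-/- mice.

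Flcn itself (chr11:59791408-59810016 of GRCm38, minus strand) had 31.7 ± 4.91 CPM in Cre mice (SD, n = 6) and 20.4 ± 2.78 CPM in liver-Flcn-/- mice (n = 5) on chow. The groups did not overlap, and the log2 difference was -0.63 (SE 0.17, adjusted p = 0.0249). The call was lost without Cre Chow mouse 6, FLCN KO Chow mouse 3 or FLCN KO Chow mouse 4 (adjusted p from 0.0567 to 0.0679), while the difference ranged from -0.70 to -0.56 over the 22 fits without 1 liver. It was also lost in livers with (-0.55, adjusted p = 0.15) or without (-0.71, adjusted p = 0.105) Xist RNA, without the chow libraries of low mapped share (-0.55, adjusted p = 0.244), with the replicate block (-0.57, adjusted p = 0.0528) and with library size alone (-0.48, adjusted p = 0.0671). On MCD it had 29.2 ± 8.42 CPM (n = 5) and 26.0 ± 5.13 CPM (n = 6), which overlapped, with a log2 difference of -0.16 (SE 0.17, adjusted p = 0.567). Counts over the whole gene include its undeleted exons and any cells in which it was not deleted, so the MCD libraries follow their labels without a check from this gene.

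Feeding the MCD diet to Cre mice raised Srxn1 5.04-fold, Hmox1 3.09-fold and Nqo1 2.12-fold. It lowered Gclm and, by the smallest amount, Keap1. The call of Nqo1 was lost with the uniquely mapped share as a covariate (log2 change 0.33, adjusted p = 0.222). The calls of Gclm and Keap1 were lost in several alternatives. With library size alone Gclm was not called (log2 change 0.08, adjusted p = 0.492) and Keap1 was called higher (0.27, adjusted p = 0.00229). In liver-Flcn-/- mice the diet raised Srxn1 1.94-fold and Hmox1 1.44-fold, and Nqo1 had a fold change of 1.01 that was not called. Nqo1 fell there in livers with Xist RNA (log2 change -0.61, adjusted p = 0.0123) and rose in livers without it (1.46, adjusted p = 7.46e-05). The response of Srxn1 and of Hmox1 was smaller in liver-Flcn-/- mice by the test of the interaction. That of Srxn1 was not called within livers without Xist RNA (-0.66 on the log2 scale, adjusted p = 0.35). On MCD, Srxn1, Txnrd1, Hmox1 and Gsr were lower in liver-Flcn-/- than in Cre mice, though none of them was called within livers without Xist RNA. On chow Hmox1 was higher in liver-Flcn-/- mice. That call was lost in livers with Xist RNA (0.50, adjusted p = 0.0864) and without the chow libraries of low mapped share (0.50, adjusted p = 0.147).

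Of the 9 members tested, 5 were called for the diet in Cre mice (3 higher and 2 lower), where 57.5% of all 14062 genes were called, 29.3% higher and 28.2% lower. Of the same 9, the liver-Flcn-/- genotype had 4 called (2 higher and 2 lower) against 45% of all genes, 22.5% in each direction. On chow 1 was called between genotypes, higher, against 8.62% of all genes (5.52% higher and 3.1% lower). On MCD 4 were called, all lower, against 16.6% of all genes (8.06% higher and 8.53% lower). The interaction called 2, both lower, against 8.83% of all genes (3.29% higher and 5.54% lower). The shares for the diet and on chow lie near those of all genes, while 4 of 9 on MCD and 2 of 9 for the interaction stand above 16.6% and 8.83%. Within livers without Xist RNA these counts were 0 and 1. The 9 genes are few and were chosen with earlier results of these data known, so a share above that of all genes is a description only. The median log2 difference of the 9 was 0.12 for the diet in Cre mice (0.01 over all genes), and -0.14 in liver-Flcn-/- mice (0.00 over all genes). Between genotypes it was 0.13 on chow (-0.03) and -0.33 on MCD (-0.01), and the interaction gave -0.26 (0.03). Groups did not overlap for 4 of the 9 between diets in Cre mice (32.5% of tested genes), 2 between diets in the other genotype (29.2%), 1 between genotypes on chow (6.94%) and 1 on MCD (8.61%).

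**Figure D1:**
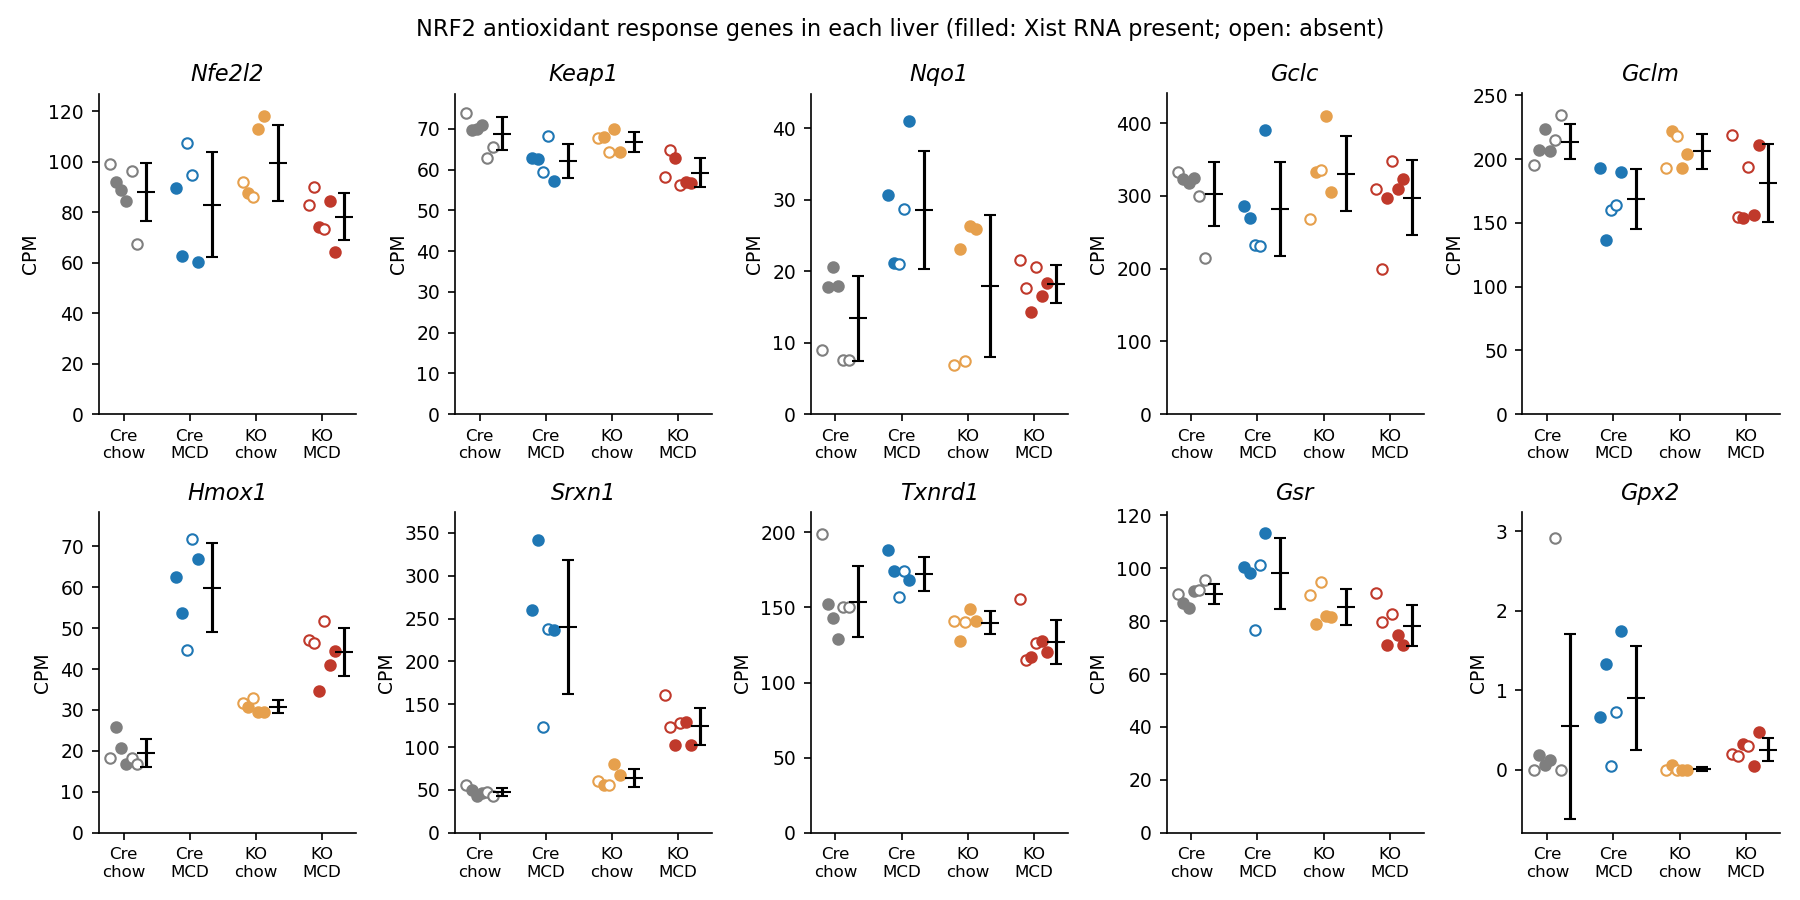
Level of each of the 10 genes in CPM (vertical axis, from 0 except for Gpx2, whose SD reaches below 0) in each liver of the 4 groups (horizontal axis). Filled points are livers with Xist RNA and open points livers without it, and bars show mean ± SD of 5 or 6 mice. All 5 MCD-fed Cre mice lie above all chow-fed Cre mice for Srxn1, Hmox1 and Nqo1, and Nqo1 splits by Xist RNA on chow.

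Srxn1 (ENSMUSG00000032802, chr2:152105516-152111376, plus strand) encodes sulfiredoxin, which repairs hyperoxidised peroxiredoxins. In chow-fed Cre mice it ranged from 42.9 to 55.9 CPM with a median of 47.1 CPM. On MCD the 5 Cre mice had 259, 342, 124, 238 and 237 CPM. All MCD values lay above all chow values, and the lowest came from Cre MCD mouse 3, the library with the highest muscle markers. Its hepatocyte markers summed to 96919 CPM, the highest of the MCD-fed Cre mice. Whether either bears on Srxn1 was not tested. The means were 47.6 ± 4.81 CPM (n = 6) and 240.0 ± 77.7 CPM (n = 5), a log2 change of 2.33 (SE 0.18, adjusted p = 9.07e-10). The 5 chow-fed liver-Flcn-/- mice had 60.5, 55.3, 56.3, 80.7 and 67.5 CPM. The 6 on MCD ranged from 102 to 161 CPM with a median of 126 CPM, again without overlap, and the log2 change was 0.96 (SE 0.18, adjusted p = 0.000154). The interaction, the response in liver-Flcn-/- mice minus that in Cre mice, was -1.37 on the log2 scale (SE 0.24, adjusted p = 0.00211). Between genotypes on MCD the log2 difference was -0.95 (SE 0.17, adjusted p = 0.000751), although Cre MCD mouse 3 lay among the liver-Flcn-/- mice. On chow the log2 difference was 0.43 (SE 0.17, adjusted p = 0.132), and it passed the test without Cre MCD mouse 3 in the common fit (adjusted p = 0.0367), in the groups compared alone (0.45, adjusted p = 0.0263) and with library size alone (0.58, adjusted p = 0.0457).

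In livers with Xist RNA Srxn1 differed between genotypes on MCD by -1.33 on the log2 scale (SE 0.20, adjusted p = 0.000358), with 237, 259 and 342 CPM in Cre mice and 102, 103 and 129 CPM in liver-Flcn-/- mice. In livers without Xist RNA the difference was -0.40 (SE 0.22, adjusted p = 0.297), with 124 and 238 CPM against 123, 128 and 161 CPM, and the interaction was -0.66 (SE 0.32, adjusted p = 0.35). The genotype differences in these classes of liver differed by -0.93 (SE 0.30, adjusted p = 0.315), which was not called.

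Hmox1 (ENSMUSG00000005413, chr8:75093621-75100589, plus strand) encodes heme oxygenase-1, which breaks down haem and is also made by macrophages. Chow-fed Cre mice ranged from 16.7 to 25.7 CPM with a median of 18.2 CPM. The 5 MCD-fed Cre mice had 62.4, 53.7, 44.8, 71.8 and 66.9 CPM, all above every chow value. The log2 change was 1.63 (SE 0.12, adjusted p = 1.02e-09), from 19.4 ± 3.42 CPM (n = 6) to 59.9 ± 10.8 CPM (n = 5). In chow-fed liver-Flcn-/- mice it had 31.7, 30.7, 32.9, 29.4 and 29.4 CPM, a narrow range that lay above all chow-fed Cre mice. The log2 difference between genotypes on chow was 0.67 (SE 0.12, adjusted p = 0.00134). It was 0.50 without the 5 chow libraries of low uniquely mapped share (adjusted p = 0.147) and 0.50 in livers with Xist RNA (adjusted p = 0.0864), and neither was called, whereas in livers without Xist RNA it was 0.87 and called (adjusted p = 0.00743). Tested directly, the classes differed in it by -0.36 (SE 0.24), which was not called. On MCD the 6 liver-Flcn-/- mice ranged from 34.7 to 51.8 CPM with a median of 45.4 CPM, above all chow mice of that genotype, and the log2 change was 0.52 (SE 0.12, adjusted p = 0.00169). The interaction was -1.10 (SE 0.17, adjusted p = 0.000912).

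On MCD, Hmox1 was lower in liver-Flcn-/- than in Cre mice by a log2 difference of -0.44 (SE 0.12, adjusted p = 0.0167), with groups that overlapped between 44.8 and 51.8 CPM. The call was lost without Cre MCD mouse 4 (-0.36, adjusted p = 0.0644) and in livers without Xist RNA (-0.27, adjusted p = 0.378). Between groups, markers of infiltrating monocytes and macrophages mostly changed in the direction of Hmox1. All 7 (Ccr2, Itgam, Itgax, Trem2, Cd9, Ms4a7 and Lyz2) rose on MCD in Cre mice (29.3% of all genes) and 4 of 7 did in liver-Flcn-/- mice (22.5%). Between genotypes, 2 of 7 were higher in the liver-Flcn-/- genotype on chow (5.52% of all genes) and 5 of 7 were lower in it on MCD (8.53%). Their summed level had a median of 92.0 CPM in chow-fed Cre mice (71.0 to 100.3), 270 CPM in MCD-fed Cre mice (184 to 316), 121 CPM in chow-fed liver-Flcn-/- mice (115 to 146) and 144 CPM in MCD-fed liver-Flcn-/- mice (92.7 to 253). Lyz2 was the most abundant of them in every group and none was at 0 in all livers of a group. Single livers did not keep the order of Hmox1. In MCD-fed Cre mice 1 to 5 the sums were 270, 184, 305, 316 and 204 CPM. Hmox1 there had 62.4, 53.7, 44.8, 71.8 and 66.9 CPM. Neutrophil markers (4 of 4 tested) and stellate cell markers (3 of 5) were also called higher on MCD in Cre mice (29.3% of all genes). Markers of resident Kupffer cells (Clec4f, Timd4, Vsig4, Marco, Cd5l and Adgre1), led by Clec4f on chow and by Cd5l on MCD, had a median sum of 402 CPM in chow-fed Cre mice, 376 CPM in MCD-fed Cre mice, 452 CPM in chow-fed liver-Flcn-/- mice and 294 CPM in MCD-fed liver-Flcn-/- mice. On MCD 1 of the 6 rose and 2 fell in Cre mice (29.3% and 28.2% of all genes), and 3 fell in liver-Flcn-/- mice (22.5%). In Cre mice mean Clec4f went from 155 to 91.2 CPM and mean Marco from 10.3 to 51.1 CPM. The part of these cells in the Hmox1 result was not tested.

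Nqo1 (ENSMUSG00000003849, chr8:107388225-107403206, minus strand) encodes a quinone reductase. On chow its level split each group by the presence of Xist RNA. In chow-fed Cre mice it had 17.8, 17.9 and 20.6 CPM in livers with Xist RNA and 7.55, 7.64 and 9.01 CPM in livers without it, and in liver-Flcn-/- mice 23.1, 25.9 and 26.4 CPM against 6.93 and 7.52 CPM. The classes did not overlap in either genotype. The difference was 1.22 on the log2 scale in Cre mice (SE 0.19, adjusted p = 0.000425), where 6.62% of all genes tested were called between the classes, and 1.80 in liver-Flcn-/- mice (SE 0.22, adjusted p = 8.25e-05), where 2.62% were. On MCD the classes overlapped in Cre mice, with 21.2, 30.7 and 41.0 CPM against 21.1 and 28.8 CPM. In MCD-fed liver-Flcn-/- mice they were 14.3, 16.6 and 18.4 CPM against 17.6, 20.7 and 21.5 CPM, and neither difference was called (adjusted p = 0.472 and 0.968).

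Over all livers Nqo1 rose on MCD in Cre mice from 13.4 ± 5.97 CPM (n = 6) to 28.5 ± 8.23 CPM (n = 5), without overlap, by 1.08 on the log2 scale (SE 0.33, adjusted p = 0.00794). With the uniquely mapped share as a covariate that change was 0.33 and was not called (adjusted p = 0.222). In liver-Flcn-/- mice Nqo1 had 18.0 ± 9.89 CPM on chow (n = 5) and 18.2 ± 2.65 CPM on MCD (n = 6), a log2 change of 0.01 (SE 0.33, adjusted p = 0.983). Within the classes it moved in opposite directions there. It fell by 0.61 in livers with Xist RNA (SE 0.18, adjusted p = 0.0123) and rose by 1.46 in livers without it (SE 0.22, adjusted p = 7.46e-05). The responses of the classes differed by -2.08 (SE 0.29, adjusted p = 0.00118), a test that called 0.676% of all genes. In Cre mice Nqo1 rose in both classes, by 0.72 with Xist RNA (adjusted p = 0.00282) and by 1.63 without (adjusted p = 7.2e-06). The genotype difference on MCD was -0.65 over all livers (SE 0.33, adjusted p = 0.186), -0.91 in livers with Xist RNA (SE 0.18, adjusted p = 0.00287) and -0.32 in livers without it (SE 0.20, adjusted p = 0.352). It passed the test in the groups compared alone (-0.65, adjusted p = 0.0223), with the uniquely mapped share as a covariate (-0.54, adjusted p = 0.0408) and without the chow libraries of low mapped share (-0.65, adjusted p = 0.00626). The interaction was -1.07 over all livers (SE 0.47, adjusted p = 0.155), -1.33 with Xist RNA (SE 0.26, adjusted p = 0.00566) and -0.17 without it (SE 0.30, adjusted p = 0.859), and it was -1.07 and called without the chow libraries of low mapped share (adjusted p = 0.0243). Tested directly, the classes differed by -0.59 in the genotype difference on MCD (SE 0.27, adjusted p = 0.488). They differed by -1.17 in the interaction (SE 0.40, adjusted p = 0.847), and neither was called.

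**Figure D2:**
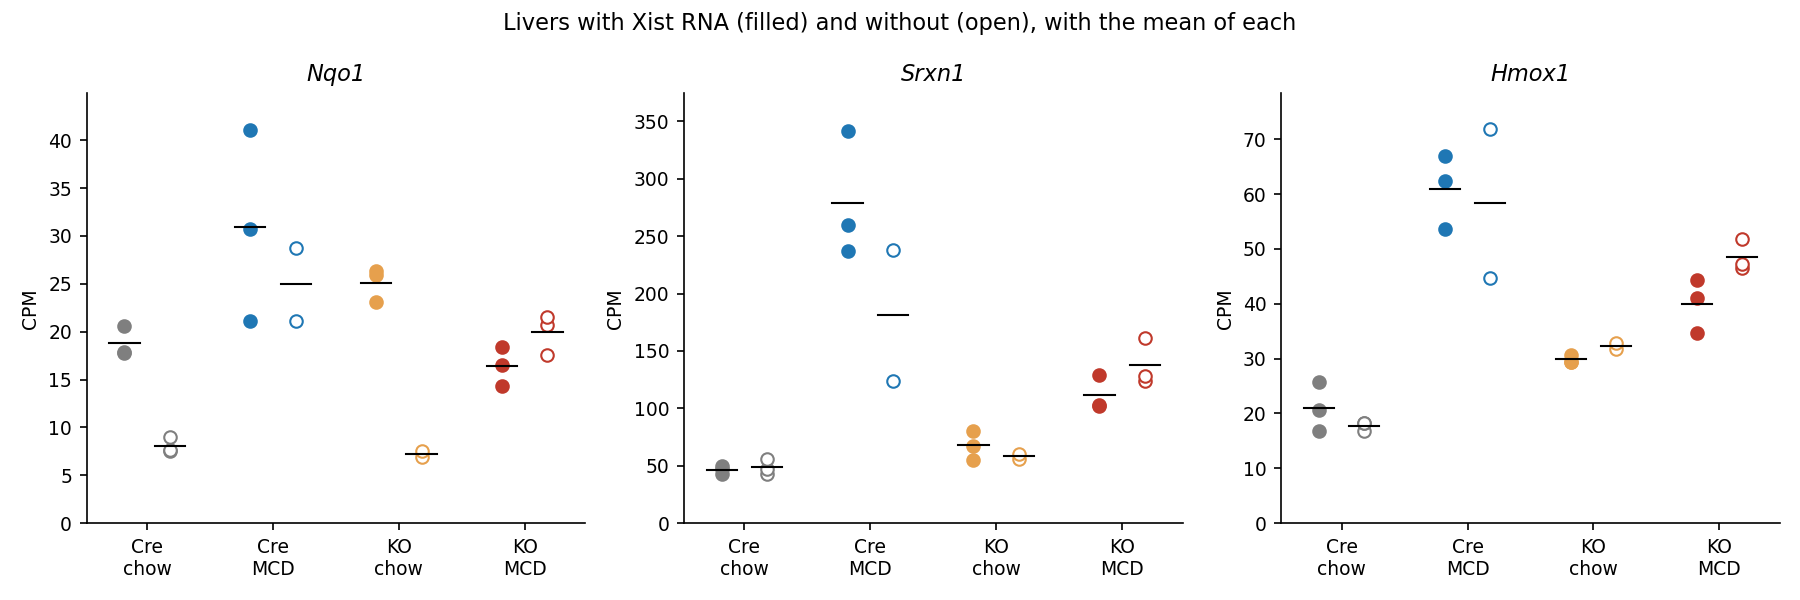
Levels of Nqo1, Srxn1 and Hmox1 in CPM (vertical axis from 0) in the 4 groups (horizontal axis), with livers with Xist RNA as filled points and livers without as open points; lines are the means of 2 or 3 livers. Nqo1 lay at 17.8 to 26.4 CPM in chow livers with Xist RNA and at 6.93 to 9.01 CPM in chow livers without it.

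Txnrd1 (ENSMUSG00000020250, chr10:82833951-82897712, plus strand), the cytosolic thioredoxin reductase, and Gsr (ENSMUSG00000031584, chr8:33652523-33698163, plus strand), the glutathione reductase, were not called for the diet within a genotype over all livers but differed between genotypes on MCD. Txnrd1 had 188, 174, 157, 174 and 168 CPM in MCD-fed Cre mice. It ranged from 115 to 156 CPM in MCD-fed liver-Flcn-/- mice, with a median of 123 CPM. The groups did not overlap, and the log2 difference was -0.44 (SE 0.10, adjusted p = 0.00289). Gsr had 101, 98.4, 76.6, 101 and 113 CPM in MCD-fed Cre mice, the lowest again in Cre MCD mouse 3. In MCD-fed liver-Flcn-/- mice it ranged from 70.9 to 90.6 CPM with a median of 77.3 CPM, so that only Cre MCD mouse 3 lay among them. The log2 difference was -0.33 (SE 0.09, adjusted p = 0.0114), and it was -0.33 and not called in a fit of these groups alone (adjusted p = 0.0557). In livers without Xist RNA neither gene was called, with log2 differences of -0.33 for Txnrd1 (adjusted p = 0.149) and -0.08 for Gsr (adjusted p = 0.724). In Cre livers with Xist RNA the diet raised both, by 0.32 for Txnrd1 (adjusted p = 0.0375) and 0.25 for Gsr (adjusted p = 0.0416). The diet change in Cre mice was also called for Txnrd1 without the chow libraries of low mapped share (0.29, adjusted p = 0.0276) and without Cre Chow mouse 1 (adjusted p = 0.0131), for Gsr without Cre MCD mouse 3 (adjusted p = 0.0313), and for both with library size alone (0.59 and 0.54), a scale on which the median gene shifts by 0.42. On chow the genotypes overlapped for both genes, with log2 differences of -0.14 for Txnrd1 (adjusted p = 0.404) and -0.08 for Gsr (adjusted p = 0.63). The interaction was -0.30 for Txnrd1 (SE 0.13, adjusted p = 0.167) and -0.25 for Gsr (SE 0.12, adjusted p = 0.213), and neither was called. With library size alone they were -0.47 (adjusted p = 0.0341) and -0.40 (adjusted p = 0.0384), beside a shift of the median gene of -0.16, and that of Txnrd1 was also called without Cre Chow mouse 1 (adjusted p = 0.0403).

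Gclc (ENSMUSG00000032350, chr9:77754535-77794485, plus strand) and Gclm (ENSMUSG00000028124, chr3:122245557-122270732, plus strand) encode the catalytic and the modifier subunit of glutamate-cysteine ligase, the first step of glutathione synthesis. Gclc had 302 ± 44.3 CPM in chow-fed Cre mice (n = 6), 282 ± 65.0 CPM in MCD-fed Cre mice (n = 5), 330.3 ± 51.6 CPM in chow-fed liver-Flcn-/- mice (n = 5) and 298 ± 51.4 CPM in MCD-fed liver-Flcn-/- mice (n = 6). All 4 groups overlapped and no comparison was called, with log2 differences between -0.15 and 0.13. Gclm ranged from 196 to 235 CPM in chow-fed Cre mice (median 211 CPM), and MCD-fed Cre mice had 193, 137, 160.0, 164 and 190.1 CPM. All 5 lay below every chow value, and the log2 change was -0.34 (SE 0.11, adjusted p = 0.00941). In liver-Flcn-/- mice the groups overlapped, with 206 ± 13.7 CPM on chow (n = 5) and 181 ± 30.3 CPM on MCD (n = 6), a log2 change of -0.18 (SE 0.11, adjusted p = 0.164). The call in Cre mice was lost in livers with (-0.29, adjusted p = 0.114) and without (-0.41, adjusted p = 0.0627) Xist RNA and without the chow libraries of low mapped share (-0.33, adjusted p = 0.0507). Scaled by library size alone, without TMM factors, the change of Gclm in Cre mice was 0.08 (adjusted p = 0.492), on a scale on which the median of all genes shifts by 0.42. Exons of Gclm share 296 bases with Gm17494 on the opposite strand and 244 with the pseudogene Gm6061, and whether reads were counted by strand is not given in the sources used here.

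Nfe2l2 (ENSMUSG00000015839, chr2:75675513-75704641, minus strand), the gene of NRF2, had, in Cre mice, 88.0 ± 11.4 CPM on chow (n = 6) and 82.9 ± 20.7 CPM on MCD (n = 5). The log2 change was -0.09 (SE 0.14), which was not called. In liver-Flcn-/- mice it had 91.9, 87.5, 86.0, 113 and 118 CPM on chow and 64.0 to 89.8 CPM on MCD (median 78.5 CPM). The groups overlapped, and the log2 change of -0.35 (SE 0.14) sat at the threshold (adjusted p = 0.0497), which 7 of 13 alternative settings and 15 of the 22 fits without 1 liver did not pass. Keap1 (ENSMUSG00000003308, chr9:21229730-21239361, minus strand), the inhibitor, had group means that lay close together. They were 68.8 ± 3.98 CPM and 62.0 ± 4.15 CPM in Cre mice on chow and MCD and 66.8 ± 2.49 CPM and 59.3 ± 3.66 CPM in liver-Flcn-/- mice. The diet changes of -0.15 (SE 0.06, adjusted p = 0.0406) and -0.17 (SE 0.06, adjusted p = 0.0248) on the log2 scale were called in groups that overlapped. The call in Cre mice held in 4 of 13 alternatives and was lost in 8 of the 22 fits without 1 liver (largest adjusted p without 1 liver 0.141, without Cre MCD mouse 5). That in liver-Flcn-/- mice held in 9 of 13 alternatives. It was lost with no filter on low counts (adjusted p = 0.154), in livers with (adjusted p = 0.0949) and without (adjusted p = 0.313) Xist RNA, with library size alone, and in 4 of the 22 fits (largest adjusted p = 0.0632, without FLCN KO Chow mouse 4). Without TMM factors the changes turned to 0.27 in Cre mice, called as higher (adjusted p = 0.00229), and 0.09 in the other genotype, not called (adjusted p = 0.309), beside a shift of the median gene of 0.42 and 0.26, and exons of Keap1 share 510 bases (10.9%) with the antisense gene Gm16754. Neither Nfe2l2 nor Keap1 was called between genotypes on either diet.

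Gpx2 (ENSMUSG00000042808, chr12:76792333-76795554, minus strand), a glutathione peroxidase of epithelia, was near the limit of detection and did not reach the mean count of 10 that a tested gene needed. Chow-fed Cre mice had 0, 3, 1, 2, 43 and 0 counts and MCD-fed Cre mice 16, 31, 1, 15 and 34 counts. Of the chow-fed liver-Flcn-/- mice 4 had 0 counts and 1 had 1 count, and those on MCD had 4, 4, 6, 7, 1 and 10 counts. With no filter on low counts no comparison was called (lowest adjusted p = 0.0676, between genotypes on chow). The high count on chow came from Cre Chow mouse 5, whose bile duct and progenitor markers (Krt19, Krt7, Epcam, Sox9, Cftr and Prom1, led by Sox9) summed to 57.2 CPM against 14.5 to 21.7 CPM in the other chow-fed Cre mice, and the part of those cells was not tested.

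Levels can be compared between genes only per length, as CPM per kilobase of annotated exons. On that scale Gclc stood highest on chow, at 80.3 ± 11.8 in Cre mice (n = 6) and 87.7 ± 13.7 in liver-Flcn-/- mice (n = 5). Next in chow-fed Cre mice came Gclm (34.0 ± 2.19) and Gsr (32.7 ± 1.39), then Nfe2l2 (23.2 ± 3.00) and Txnrd1 (21.7 ± 3.34), then Srxn1 (16.9 ± 1.70), Keap1 (14.7 ± 0.847), Hmox1 (11.1 ± 1.95) and Nqo1 (8.64 ± 3.84), with Gpx2 last at 0.169 ± 0.360. The ranges of neighbours in this order overlapped in chow-fed Cre mice, except those of Gclc and Gclm, of Gsr and Nfe2l2 and of Nqo1 and Gpx2. In MCD-fed Cre mice Srxn1 was first (85.1 ± 27.6, n = 5), within the range of Gclc (74.8 ± 17.3). In MCD-fed liver-Flcn-/- mice (n = 6) Gclc stayed first (79.1 ± 13.6) and Srxn1 followed at 44.1 ± 7.64, with ranges that overlapped.

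**Figure D3:**
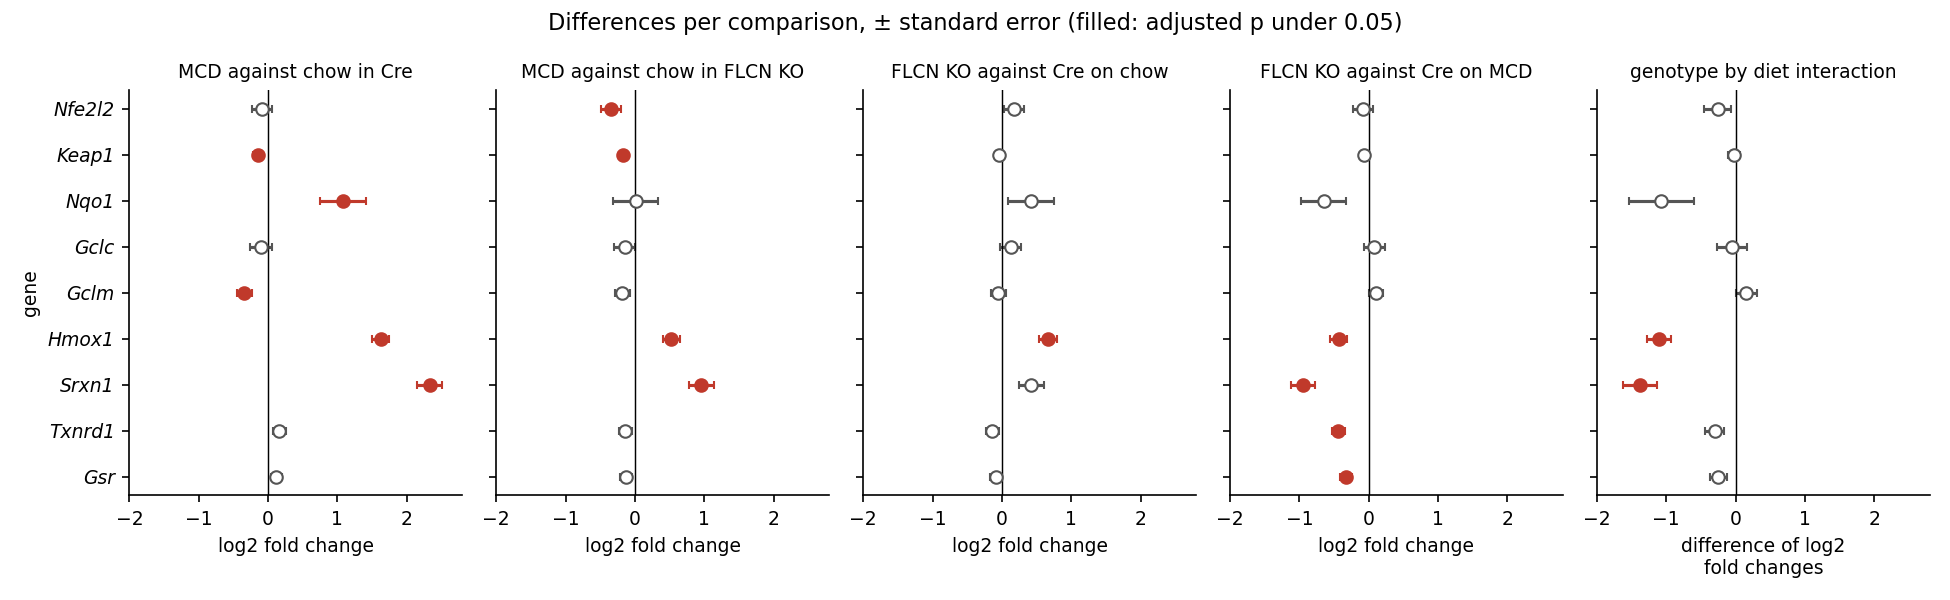
Log2 difference (horizontal axis) of the 9 tested genes (vertical axis) in each of the 5 comparisons, with bars of ± 1 standard error and filled points where the adjusted p was under 0.05. Srxn1 and Hmox1 lie furthest right for the diet in Cre mice (2.33 and 1.63) and nearer to 0 in liver-Flcn-/- mice (0.96 and 0.52).

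The genes whose level followed a member most closely were sought by the smallest root mean square difference of z-scored log2 CPM over the 22 livers, among 14061 other genes. For Srxn1 they were Eif6 (0.258), Tnfaip1 (0.266) and Tnfrsf1a (0.267). For Hmox1 they were Alox5ap (0.303), Scube1 (0.321) and Hpgds (0.338), and for Nqo1 they were Dennd2a (0.410), Ntn1 (0.441) and Abhd2 (0.477). These are likenesses over libraries that share groups and depth.

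Beyond the 10 members, 65 other genes of the pathway in 7 lists were all tested. The diet called 48 of the 65 in Cre mice (29 higher, 19 lower), where 57.5% of all genes were called, and 36 in the liver-Flcn-/- genotype (22 higher, 14 lower), where 45% were. Between genotypes 7 were called on chow, all lower (3.1% of all genes), and 18 on MCD (5 higher, 13 lower; 8.06% and 8.53% of all genes). The interaction called 5 (2 higher, 3 lower; 3.29% and 5.54%). The counts of single lists that follow stand beside 29.3% of all genes higher and 28.2% lower for the diet in Cre mice and 22.5% each way in the other genotype, and beside 8.06% higher and 8.53% lower between genotypes on MCD, and no difference between genotypes in these counts was tested. In the list of glutathione synthesis and use MCD raised 9 of 14 genes and lowered 1 in Cre mice, and it raised 6 and lowered 3 in liver-Flcn-/- livers.

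Slc7a11, the cystine carrier that feeds glutathione synthesis, was almost absent on chow, with 2 counts over the 6 Cre mice and 2 over the 5 liver-Flcn-/- mice. On MCD it had 6.14, 2.59, 2.86, 5.53 and 4.82 CPM in Cre mice and 0.191 to 3.05 CPM in liver-Flcn-/- mice (median 1.06 CPM). The ratio of MCD to chow was 195 in Cre mice (95% counting interval 53.7 to 1620.0) and 53.4 in liver-Flcn-/- mice (14.5 to 444), intervals that cover counting error only. On MCD it was lower in liver-Flcn-/- than in Cre mice by a log2 difference of -1.77 (SE 0.49, adjusted p = 0.0156), a call lost in the groups compared alone (-1.76, adjusted p = 0.0555) and in livers without Xist RNA (-0.91, adjusted p = 0.208). Gsta1, a glutathione transferase with near-identical relatives such as Gsta2 among which reads may be split, had its Cre mean raised from 0.235 ± 0.200 to 7.63 ± 2.74 CPM and its liver-Flcn-/- mean from 0.479 ± 0.329 to 2.55 ± 1.28 CPM. Its interaction was -2.53 on the log2 scale (SE 0.71, adjusted p = 0.0307), and its genotype difference on MCD was -1.57 (SE 0.39, adjusted p = 0.00759). The interaction lost its call in 4 of 11 alternatives (largest adjusted p = 0.2) and in 4 of the 22 fits without 1 liver (largest adjusted p = 0.108), and the difference on MCD lost it in livers without Xist RNA (-1.08, adjusted p = 0.127). Ggt1, which starts the breakdown of extracellular glutathione, was called in Cre mice (log2 change 4.86, SE 0.80, adjusted p = 2.71e-05) from 0.0531 ± 0.0502 to 1.80 ± 2.21 CPM, and Cre MCD mouse 2 at 5.60 CPM stood above the other 4. Without that mouse the change was 3.77 and remained called. In livers without Xist RNA it was 2.25 and not called (adjusted p = 0.126). The chow level of Ggt1 in Cre mice was near the limit of detection, so the size of its change is uncertain. Gpx3, a secreted peroxidase, was raised in both genotypes, from 3.49 ± 1.41 to 53.7 ± 40.7 CPM in Cre mice (log2 change 3.95, SE 0.38, adjusted p = 2.81e-08) and in liver-Flcn-/- livers from 7.55 ± 2.11 to 62.9 ± 20.8 CPM (log2 change 3.05, SE 0.38, adjusted p = 1.48e-06). Its interaction was not called (-0.89, adjusted p = 0.292). Gstm3, a mu-class transferase that also has close relatives, was lower in MCD-fed liver-Flcn-/- mice, with 67.8 ± 22.3 against 223 ± 95.05 CPM (log2 difference -1.72, SE 0.35, adjusted p = 0.00201). On MCD 6 of the 14 genes of this list were lower in the liver-Flcn-/- genotype, where 8.53% of all genes were.

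**Figure D4:**
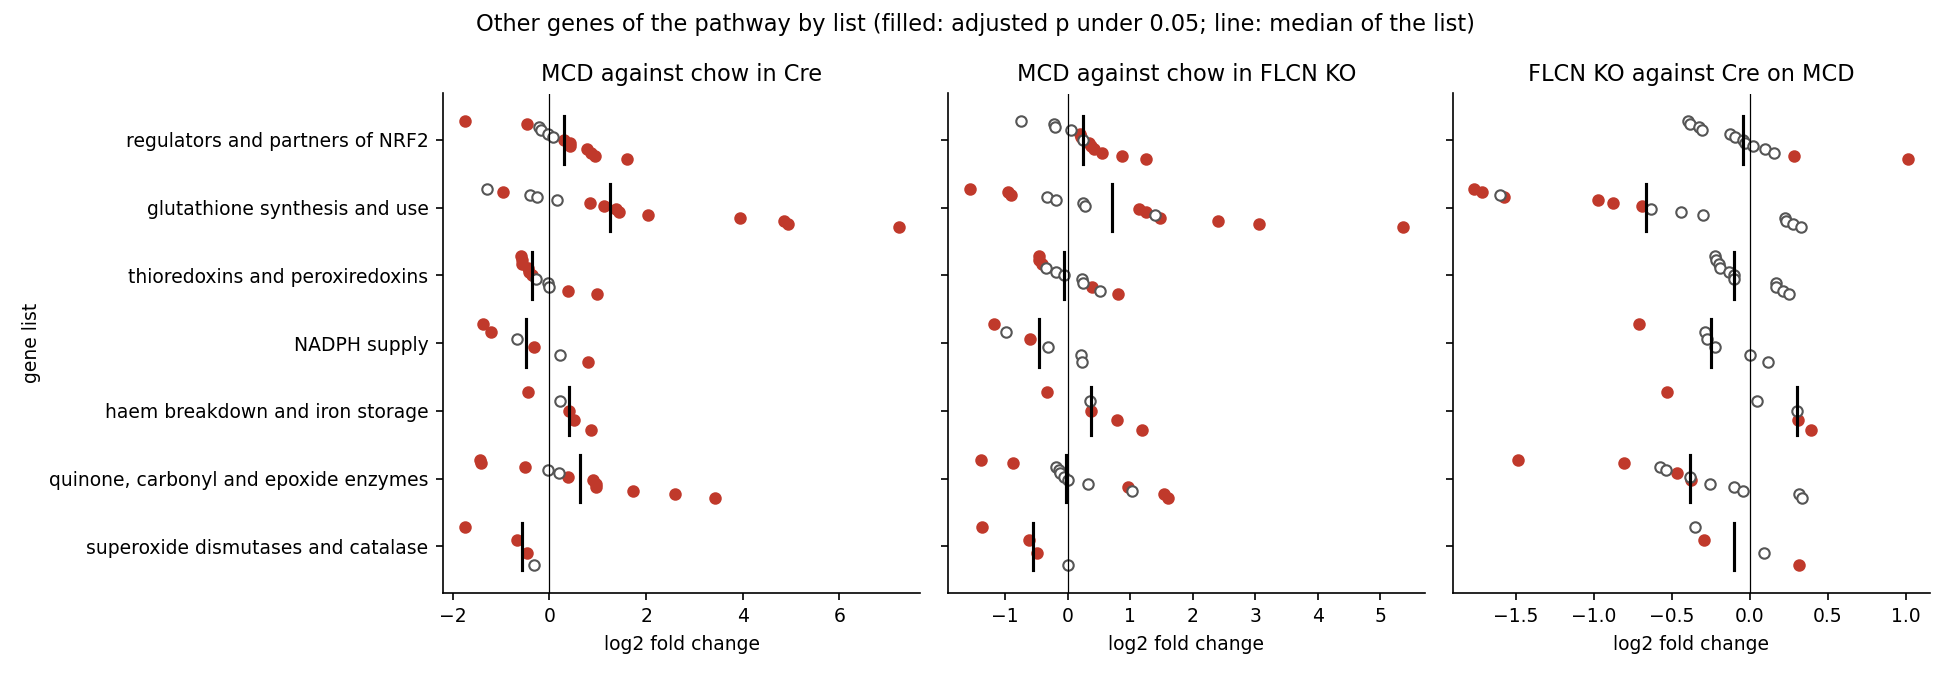
Log2 fold change (horizontal axis, with its own scale in each panel) of 65 other pathway genes in 7 lists (vertical axis) for the diet in each genotype and for the genotypes on MCD; filled points had an adjusted p under 0.05 and lines are list medians. The glutathione list has its median above 0 for the diet (1.25 in Cre mice, 0.71 in liver-Flcn-/- mice) and below 0 between genotypes on MCD (-0.66).

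Gstp1, a pi-class transferase, split chow livers as Nqo1 did, in the opposite direction. In chow-fed Cre mice it had 164, 130.0 and 159 CPM in mice 2 to 4, with Xist RNA, and 1244, 1233 and 1984 CPM in mice 1, 5 and 6, without it. In the chow-fed liver-Flcn-/- group it had 158 to 264 CPM in the 3 livers with Xist RNA and 1324 and 1189 CPM without it, so that the classes did not overlap in either genotype. On MCD it ranged from 184 to 264 CPM in that genotype. Its log2 change on MCD in liver-Flcn-/- mice was -1.57 (SE 0.62, adjusted p = 0.045), and -0.22 within livers with Xist RNA (adjusted p = 0.45). In livers without Xist RNA it was -2.41 and called (adjusted p = 9.4e-07), and with the uniquely mapped share as a covariate it was 0.12 and not called (adjusted p = 0.624). The call held in 7 of 13 alternatives and was lost in 11 of the 22 fits without 1 liver.

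Among regulators and partners of NRF2, the MCD diet raised 7 of 13 and lowered 2 in Cre mice, and it raised 8 in the liver-Flcn-/- genotype. Mafk, a small MAF partner of NRF2, had 13.04 ± 2.19 and 25.2 ± 3.32 CPM in Cre mice and 16.1 ± 2.41 and 20.4 ± 2.40 CPM in liver-Flcn-/- mice on chow and MCD, with an interaction of -0.61 (SE 0.17, adjusted p = 0.0313). The interaction of Mafk was not called in 8 of the 22 fits without 1 liver (largest adjusted p = 0.0681), with the replicate block (adjusted p = 0.0547) and in livers without Xist RNA (-0.42, adjusted p = 0.447). Bach2, a repressor that competes for small MAF proteins, fell in Cre mice from 8.79 ± 3.35 to 2.64 ± 0.655 CPM (log2 change -1.74, SE 0.33, adjusted p = 0.000135), and its change in the other genotype was -0.75 (SE 0.31, adjusted p = 0.0553). On MCD it was higher in liver-Flcn-/- mice, at 5.34 ± 2.55 CPM (log2 difference 1.01, SE 0.33, adjusted p = 0.0369), a call lost without any 1 of Cre MCD mice 1, 2, 4 and 5 and FLCN KO MCD mice 3 and 5 (largest adjusted p = 0.114). It was also lost by limma-voom (0.92, adjusted p = 0.0992) and in livers without Xist RNA (0.22, adjusted p = 0.825), and was 1.62 in livers with it (adjusted p = 0.013).

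In the list of quinone, carbonyl and epoxide enzymes 7 of 12 genes rose and 3 fell on MCD in Cre mice, 3 rose and 2 fell in liver-Flcn-/- livers, and 4 were lower in MCD-fed liver-Flcn-/- mice than in MCD-fed Cre mice (8.53% of all genes). Akr1b8, an aldo-keto reductase, had 3.60 ± 0.876 and 7.05 ± 1.14 CPM in Cre mice and 4.42 ± 1.27 and 4.02 ± 0.867 CPM in liver-Flcn-/- mice on chow and MCD, with an interaction of -1.10 (SE 0.28, adjusted p = 0.0182) that was -0.66 and not called in livers without Xist RNA (adjusted p = 0.463). Nqo2, a second quinone reductase, fell in Cre mice from 163 ± 34.4 to 60.5 ± 17.1 CPM (log2 change -1.43, SE 0.18, adjusted p = 1.21e-06) and in the other genotype from 139 ± 26.1 to 76.3 ± 10.6 CPM (log2 change -0.87, SE 0.18, adjusted p = 0.000406). Aox1, an aldehyde oxidase, fell in both, from 77.1 ± 20.6 to 28.8 ± 2.56 CPM in Cre mice (log2 change -1.42, SE 0.15, adjusted p = 1.08e-07) and in liver-Flcn-/- livers from 54.4 ± 8.86 to 20.9 ± 2.53 CPM (log2 change -1.38, SE 0.15, adjusted p = 2.22e-07). On chow it was lower in liver-Flcn-/- than in Cre mice by -0.50 (SE 0.15, adjusted p = 0.0373) and by -0.12 in livers with Xist RNA (adjusted p = 0.725), and the call was lost in 8 of 13 alternatives and in 7 of the 22 fits without 1 liver.

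Of superoxide dismutases and catalase, antioxidant enzymes that act beside the pathway, 3 of 4 fell on MCD in each genotype. Cat, the catalase of peroxisomes, fell from 3346 ± 528 to 994 ± 146 CPM in Cre mice (log2 change -1.75, SE 0.12, adjusted p = 2.38e-10) and in liver-Flcn-/- livers from 2731 ± 263 to 1057 ± 94.96 CPM (log2 change -1.37, SE 0.12, adjusted p = 9.4e-09). Sod2, the mitochondrial dismutase, fell in Cre mice from 190.1 ± 8.06 to 139 ± 12.7 CPM and had 171 ± 7.61 and 172 ± 8.03 CPM in liver-Flcn-/- mice. Its interaction was 0.46 (SE 0.09, adjusted p = 0.00459) and its genotype difference on MCD 0.31 (SE 0.07, adjusted p = 0.00242), and in livers without Xist RNA neither was called (0.44, adjusted p = 0.144, and 0.30, adjusted p = 0.0791). Of thioredoxins and peroxiredoxins 2 of 11 rose and 6 fell in Cre mice, and 2 rose and 3 fell in the liver-Flcn-/- genotype. Txnrd2, the mitochondrial counterpart of Txnrd1, was lower in chow-fed liver-Flcn-/- mice, with 32.1 ± 3.04 against 45.8 ± 5.18 CPM (log2 difference -0.51, SE 0.12, adjusted p = 0.00986). On MCD it had 33.9 ± 7.49 CPM in Cre mice and 38.1 ± 4.28 CPM in liver-Flcn-/- mice, an interaction of 0.68 (SE 0.17, adjusted p = 0.0169). The chow difference lost its call in 3 of 13 alternatives (largest adjusted p = 0.117) and the interaction in 3 of 12 (largest adjusted p = 0.0858).

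Of the genes of haem breakdown and iron storage, which act after or beside Hmox1, 3 of 5 rose and 1 fell on MCD in each genotype. On MCD Fth1, the ferritin heavy chain, had 2609 ± 463 CPM in Cre livers and 3420 ± 277 CPM in liver-Flcn-/- livers (log2 difference 0.39, SE 0.10, adjusted p = 0.0109). The call was lost in the groups compared alone (0.39, adjusted p = 0.0533) and in livers with Xist RNA (0.25, adjusted p = 0.24). Blvrb, a biliverdin reductase, was lower in chow-fed liver-Flcn-/- mice, with 66.3 ± 6.87 against 107 ± 15.0 CPM and no overlap (log2 difference -0.69, SE 0.14, adjusted p = 0.00248), a call lost without the chow libraries of low mapped share (-0.68, adjusted p = 0.0567) and in livers without Xist RNA (-0.66, adjusted p = 0.103). Of the genes that supply NADPH, the reductant of these enzymes, 1 of 6 rose and 3 fell in Cre mice and 2 fell in the liver-Flcn-/- genotype.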

How the data were processed

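Total RNA of mouse liver was made into mRNA libraries and sequenced. Per the labels and the study's methods, the authors trimmed reads with Trimmomatic, aligned them to GRCm38 with STAR and deposited HTSeq read counts per gene, not normalized, in 1 table. Adapters carried molecular identifiers, but no step that collapses reads, no strand setting and no annotation release is given in the sources used here, so errors from counting alone are too small. All 22 libraries entered a model of edgeR 4.0.16 (R 4.3.3) over the 14062 genes that averaged 10 counts or more, with TMM factors, 1 fit of the 4 groups, two-sided quasi-likelihood tests and Benjamini-Hochberg adjustment over the genes tested. The fit was also run on simulated data, and no value given here comes from that run. The SE is the log2 difference divided by the root of F. The spread is between mice.

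The members and the lists of other genes were chosen with earlier results of these data known. Genes named are all members, Flcn, in each comparison the 3 called genes of the other pathway lists with the largest log2 change in each direction, and the 3 genes of most similar pattern for Srxn1, Hmox1 and Nqo1. Gpx2 counts and Gstp1 per mouse were given after their values were seen, as was the division by Xist RNA. Of 50 pairs of libraries within a group, 0 were identical. Positions and exon lengths come from GENCODE M21 (GRCm38).

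Alternatives were limma-voom (limma 3.58.1), DESeq2 1.42.0, RLE factors, no filter, at least 10 counts in every library, the groups compared alone, a replicate block, the sex read from Xist and Ddx3y, the uniquely mapped share as a covariate (from the study's library statistics), leaving out the 5 chow libraries under 75%, and leaving out each mouse in turn. Library size alone and the fit of 8 groups by Xist RNA were added after seeing the data.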

Additional observations from a re-analysis of the deposited data

Results flagged for a closer look

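Gaps between the extreme mouse and its group were examined on the log2 CPM scale for the 10 genes in 4 groups. Of these 40, 5 stood apart. The rule flags about 1 in 20 groups of normally spread values, a rate that does not hold for the few counts of Gpx2. Gclc was lowest in Cre Chow mouse 6 (215 CPM, the next at 299.5 CPM) and in FLCN KO MCD mouse 2 (199 CPM, the next at 298 CPM). Txnrd1 was highest in FLCN KO MCD mouse 1 (156 CPM, the next at 128 CPM). Gpx2 was highest in Cre Chow mouse 5 (2.91 CPM, the next at 0.182 CPM) and in FLCN KO Chow mouse 2 (0.0594 CPM, which is 1 count). On the scale of CPM itself, tried after seeing the data, these 5 and also Txnrd1 in Cre Chow mouse 1 (199 CPM, the next at 152 CPM) stood apart.

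The response to the diet differed between genotypes by the interaction test for Srxn1 (-1.37 on the log2 scale) and Hmox1 (-1.10). Within livers without Xist RNA the interaction of Srxn1 was -0.66 and not called (adjusted p = 0.35). For Nqo1 the response in liver-Flcn-/- mice differed between livers with and without Xist RNA by -2.08 on the log2 scale. Sex is not in the labels, and on chow the Xist classes cannot be told apart from the uniquely mapped share.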

How the results depend on the processing

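Gpx2, Slc7a11 on chow and Ggt1 on chow in Cre mice rest on few counts. The diet responses of Srxn1 and Hmox1 kept their direction and call under all 13 alternatives and without any 1 of 22 livers. The causes of the changes below were not tested. For the diet in Cre mice, members called were 3 within livers without Xist RNA, against 5. For the diet in liver-Flcn-/- mice they were 2 with no filter and 2 with library size alone, against 4. Between genotypes on chow they were 2 in the groups compared alone, 2 with library size alone, and 0 without the chow libraries of low mapped share and 0 within livers with Xist RNA (2 and 3 of 9 at an unadjusted p under 0.05), against 1. On MCD they were 0 within livers without Xist RNA (1 at an unadjusted p under 0.05), against 4, and for the interaction 4 with library size alone and 1 within livers without Xist RNA, against 2.

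Other pathway genes called on chow were 4 with no filter, 4 with the replicate block, 3 without low mapped share and 12 by DESeq2, against 7. On MCD they were 6 within livers without Xist RNA, against 18. For the interaction they were 3 with the block, 8 with the mapped share covariate, 8 by DESeq2, 11 with Xist RNA and 0 without it (9 at an unadjusted p under 0.05), against 5. Over the whole table, calls for the diet in liver-Flcn-/- mice were 4042 without Xist RNA against 6328. On chow they were 494 without low mapped share, 611 with Xist RNA and 549 without, against 1212. On MCD they were 1387 without Xist RNA against 2333, and for the interaction 552 with the block, 779 without low mapped share and 194 without Xist RNA, against 1242.

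Library size alone shifted the median gene by 0.42 for the diet in Cre mice, 0.26 in liver-Flcn-/- mice, 0.15 on chow and -0.16 for the interaction, and the share of calls that were higher from 50.9% to 81.9%, 50% to 77%, 64% to 92.1% and 37.3% to 12.5%. On chow that share was also 80.2% with no filter, 75.9% without low mapped share, 74% with and 75.8% without Xist RNA. For the interaction it was 25.1% with no filter and 11.3% without Xist RNA. With library size alone, log2 changes for the diet in Cre mice turned to 0.33 for Nfe2l2, 0.27 for Keap1, 0.31 for Gclc, 0.0765 for Gclm and 0.30 for Flcn. In liver-Flcn-/- mice they turned to 0.0898 for Keap1, 0.11 for Gclc, 0.0758 for Gclm, 0.12 for Txnrd1 and 0.14 for Gsr. On chow the genotype difference turned to 0.11 for Keap1, 0.0949 for Gclm, 0.0135 for Txnrd1 and 0.071 for Gsr, and the interaction of Gclm to -8e-04.

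Within livers without Xist RNA the diet change in Cre mice turned to 0.20 for Nfe2l2, -0.0066 for Txnrd1, -0.0568 for Gsr and 0.11 for Flcn, the chow difference of Nqo1 to -0.16 and the interaction of Gclc to 0.20. Within livers with Xist RNA the MCD difference turned to 0.0657 for Nfe2l2, -0.0232 for Gclc and 0.24 for Flcn, and the interaction of Keap1 to 0.0105. Nqo1 for the diet in liver-Flcn-/- mice turned to -0.33 with the mapped share covariate, -0.47 without low mapped share and -0.61 with Xist RNA, and Gstp1 to 0.12 with that covariate. Interactions turned to 0.0037 for Keap1 and 0.0098 for Gclc with the block, and to 0.0096 for Gclc with sex as a factor.

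Replicate numbers name different mice. Same-numbered mice in chow and MCD groups did not deviate together in every pair. Correlations of the 5 pairs ranged from -0.14 to -0.01 between diets in Cre mice and from -0.19 to 0.21 in liver-Flcn-/- mice. Between genotypes they ranged from -0.55 to 0.47 on chow and from 0.06 to 0.26 on MCD. With the replicate block Nfe2l2 for the diet in liver-Flcn-/- mice changed to -0.28 (adjusted p = 0.126) and Gstp1 to -1.48 (adjusted p = 0.0819). The chow difference of Aox1 changed to -0.40 (adjusted p = 0.0973), and none of these was called.

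Without any 1 liver, members called ranged from 4 to 5 for the diet in Cre mice, 2 to 4 in liver-Flcn-/- mice, 1 to 2 on chow (2 without Cre MCD mouse 3), 3 to 4 on MCD (3 without Cre MCD mouse 4) and 2 to 3 for the interaction. Other pathway genes ranged from 46 to 49, 32 to 41, 5 to 10, 13 to 19 and 3 to 8 in the same order, and the whole table from 7620 to 8209, 5616 to 6586, 670 to 1429 (670 without FLCN KO Chow mouse 4), 1773 to 2460 and 819 to 1426 (819 without Cre MCD mouse 1). Log2 changes whose sign turned ranged from -0.26 to 0.0117 for Flcn and -0.20 to 0.0213 for Nfe2l2 for the diet in Cre mice, -0.19 to 0.19 for Nqo1 for the diet in liver-Flcn-/- mice, -0.18 to 0.0243 for Nfe2l2 on MCD, and -0.11 to 0.0679 for Gclc and -0.0785 to 0.0135 for Keap1 for the interaction.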
